A study of Mus musculus with 45 samples.

Results

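Mouse brain tumours carrying a kinase domain substitution of the platelet-derived growth factor receptor alpha, D842V, were set against tumours carrying an insertion in its extracellular part, labelled C450 ins. The groups were chosen by the genotype in the labels and held 5 arrays each, 10 of the 45 arrays of the series. Both groups were Pdgfra mutants on a p53null background in CD-1 nude mice, labelled as mouse brain of a glioblastoma model. Per the series description, receptors were delivered by retrovirus to primary astrocytes lacking p53. The labels give no age and do not say whether arrays of a group came from separate cell cultures or mice, so the p-values cover the spread among arrays, which may be technical. Sample titles of D842V ran from 1 to 5 and those of C450 ins from 26 to 30, within the lower range of title numbers, which the labels do not call a batch. The levels given for other mutants come from 26 arrays, 9 of V544ins, 9 of E10 del.v2, 5 of E10 del and 3 of E7 del. Some of these arrays carried title numbers above 30, and their levels are descriptions without a test. Nude mice lack a thymus and most T cells, and of 15 lymphocyte markers 1 was kept as expressed.

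The receptor encoded by Pdgfra is a tyrosine kinase that pairs up when it binds platelet-derived growth factors and then signals through the RAS and ERK kinases and through phosphoinositide 3-kinase. In the brain it marks oligodendrocyte progenitor cells, which depend on its ligand to divide. D842V lies in the activation loop of the kinase and gives activity without ligand, whereas the extracellular part binds ligand and holds receptor pairs together. ERK signalling induces immediate early genes within a short time and builds up feedback inhibitors such as the Sprouty proteins.

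Values are log2 signals, so a difference of 1 is a change of 2-fold. Differences are D842V minus C450 ins with the standard error of a limma fit over all 45 arrays. In that fit all 8 genotype groups share an estimate of the spread for each gene, also groups in which the gene is low. Group levels are mean ± SD (n = 5), and a gene was called at a Benjamini-Hochberg adjusted p under 0.05 over the 11809 genes kept. Of these, 5 genes were called (0.0423%), 4 of them higher in D842V (0.0339%) and 1 lower (0.00847%). The developmental cofactor Eya2, the transcription factor Sox21, the peptide hormone Pyy and the matrix protein Adamtsl1 rose, and the cell surface proteoglycan Gpc6 fell. At an unadjusted p under 0.05 there were 690 genes (5.84%), 226 higher and 464 lower. The arrays of both groups did not overlap for 403 genes (3.41%), 108 higher and 295 lower in D842V. With centred arrays or quantile normalisation Eya2 was the 1 call, and the split was 1 higher and 0 lower. A fit on the 10 arrays alone called 38 genes, 7 higher and 31 lower, and retained 0 of these 5. A fit on the 21 arrays of titles 1 to 30 called 72, 19 higher and 53 lower, and retained all 5.

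**Figure D1:**
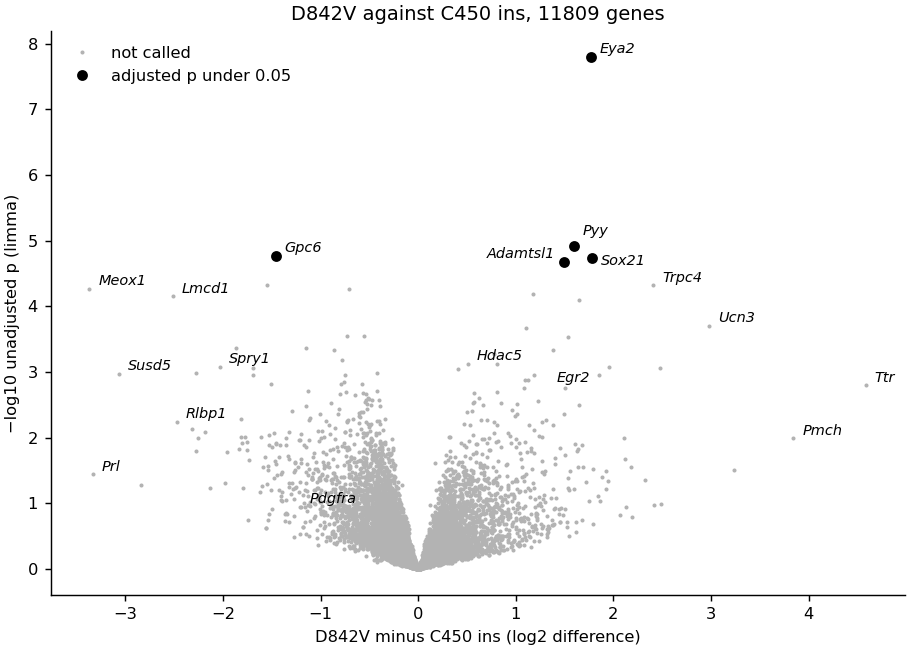
Difference (D842V minus C450 ins, log2) against −log10 of the unadjusted limma p for each of the 11809 genes kept, 1 point a gene. The 5 black points are the called genes, and Eya2, with an adjusted p of 0.000186, stands above the others.

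Across the 10 arrays the amount of host brain RNA varied within both groups. The mean of 16 neuronal markers was 5.7 to 10.8 in D842V and 5.9 to 10.8 in C450 ins, with D842V replicate 5 and C450 ins replicates 4 and 5 under 7. In bulk samples, fewer cells of a type and less RNA per cell cannot be told apart. The first principal component held 55% of the variance, and 7 of the 10 arrays had their highest correlation with an array of their own group. The 3′ minus 5′ signal of Actb, a measure of RNA integrity, was 0.60 ± 0.13 in D842V and 0.62 ± 0.11 in C450 ins (exact two-sided permutation test, p = 0.913). For Gapdh it was -0.05 ± 0.20 and 0.19 ± 0.05 (exact permutation p = 0.0317, 0.0635 after Benjamini-Hochberg adjustment over both measures), and its part in the results was not tested. Xist, transcribed from the inactive X chromosome, lay from 9.71 to 12.05, and the Y-linked Eif2s3y, Kdm5d and Uty from 3.24 to 9.03. Their differences were -0.01 ± 0.41, 0.22 ± 1.29, 0.04 ± 0.92 and 0.14 ± 0.71, and none passed.

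Transcripts of the receptor itself were lower on average in D842V without passing the test. Pdgfra was 4.91, 6.43, 6.29, 5.60 and 7.51 in D842V replicates 1 to 5, and 6.54, 7.33, 7.56, 8.14 and 7.21 in C450 ins. The groups overlapped, because D842V replicate 5 lay above 3 of the C450 ins arrays. The difference was -1.21 ± 0.74 (limma adjusted p = 0.963), and it rests on 1 probe set. The labels do not say whether that probe set reads the retroviral receptor. Pdgfrb, the sister receptor found on pericytes, differed by -0.69 ± 0.28 and Pdgfrl, a receptor-like gene without a kinase, by -1.45 ± 0.56. The ligand genes Pdgfb and Pdgfc differed by -0.36 ± 0.41 and 0.27 ± 0.32. Of 6 kept genes of this family 0 passed, and their median was -0.52 beside -0.03 over all kept genes. Egfr differed by -0.76 ± 0.58.

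Among regulators of development, Eya2 had the smallest p of all genes. It encodes a cofactor and phosphatase that works with homeodomain proteins of the sine oculis family. Its values were 4.34, 5.05, 5.86, 4.50 and 5.93 in D842V, and 3.22, 2.97, 3.31, 3.57 and 3.77 in C450 ins. All D842V arrays lay above all C450 ins arrays, and above the highest of the 26 other mutant arrays, 4.21. Eya2 was 3.40-fold higher in D842V (1.77 ± 0.25, limma adjusted p = 0.000186). That standard error pools the spread of all groups. The SD of Eya2 was 0.74 in D842V, 0.31 in C450 ins and 0.15 to 0.51 in the other mutant groups. Eya2 passed the filter on low values through D842V alone, since 3 D842V arrays, 0 C450 ins arrays and 0 of the other 35 lay above the table median of 4.79. In the fit on the 10 arrays its adjusted p was 0.0724, and it was called in 23 of the 24 alternative fits that kept it and tested against no difference. Tested against a log2 difference of at least 1, it was not called. The filters of 9 arrays and of 5 of the 10 arrays dropped it. The alternative fits share arrays, so their count is not independent support.

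Sox21, a transcription factor of neural progenitors that counteracts other SOX proteins, was 6.54, 7.55, 7.26, 7.49 and 7.49 in D842V. In C450 ins it was 4.11, 6.27, 5.31, 6.0 and 5.74. The groups did not overlap, and D842V replicate 1 lay closest to C450 ins. The other mutants spanned 4.20 to 6.53, with all 26 arrays below the lowest D842V array. Sox21 was 3.43-fold higher in D842V (1.78 ± 0.36, limma adjusted p = 0.0489). Leaving out 1 array gave adjusted p values above 0.05 in 8 of 10 cases, among them 0.221 without C450 ins replicate 1.

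Meox1, a homeobox gene of mesenchyme and somites, showed the widest gap between the groups among the genes chosen for their gaps. It was 4.79, 4.58, 4.62, 4.79 and 5.04 in D842V, near the table median. In C450 ins it was 7.83, 8.08, 8.99, 8.86 and 6.90, and the other mutants ran from 4.83 to 9.59 with a median of 7.37. The gap between the groups was 1.86, and only 4 of the 26 other mutant arrays lay below the highest D842V array. The difference was -3.37 ± 0.74, a level 10.3-fold lower in D842V, with an adjusted p of 0.0709 in the limma fit over all arrays and 0.0114 in the fit on the 10 arrays. The related cofactor gene Eya1 differed by -1.15 ± 0.56 and overlapped. Of 21 kept genes on the list of homeobox, forkhead and other developmental regulators, 2 were called, Eya2 and Sox21, both higher in D842V. Over all kept genes 0.0423% were called. The list was chosen with earlier results of these data known, and Eya2 passed the filter through D842V alone. The 2 shares are therefore a description and not a test. On average 9 members of the list were higher in D842V and 12 lower. The list median was -0.05. Of 26 Hox genes only Hoxa2 and Hoxa5 were kept. Hoxa5 was 2.78 to 2.98 in D842V and 3.28 to 3.71 in 4 C450 ins arrays, with 7.78 in C450 ins replicate 4. Both lay below the table median in every D842V array. Hoxa2 did so in every C450 ins array too, and Hoxa5 in all of them but replicate 4.

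**Figure D2:**
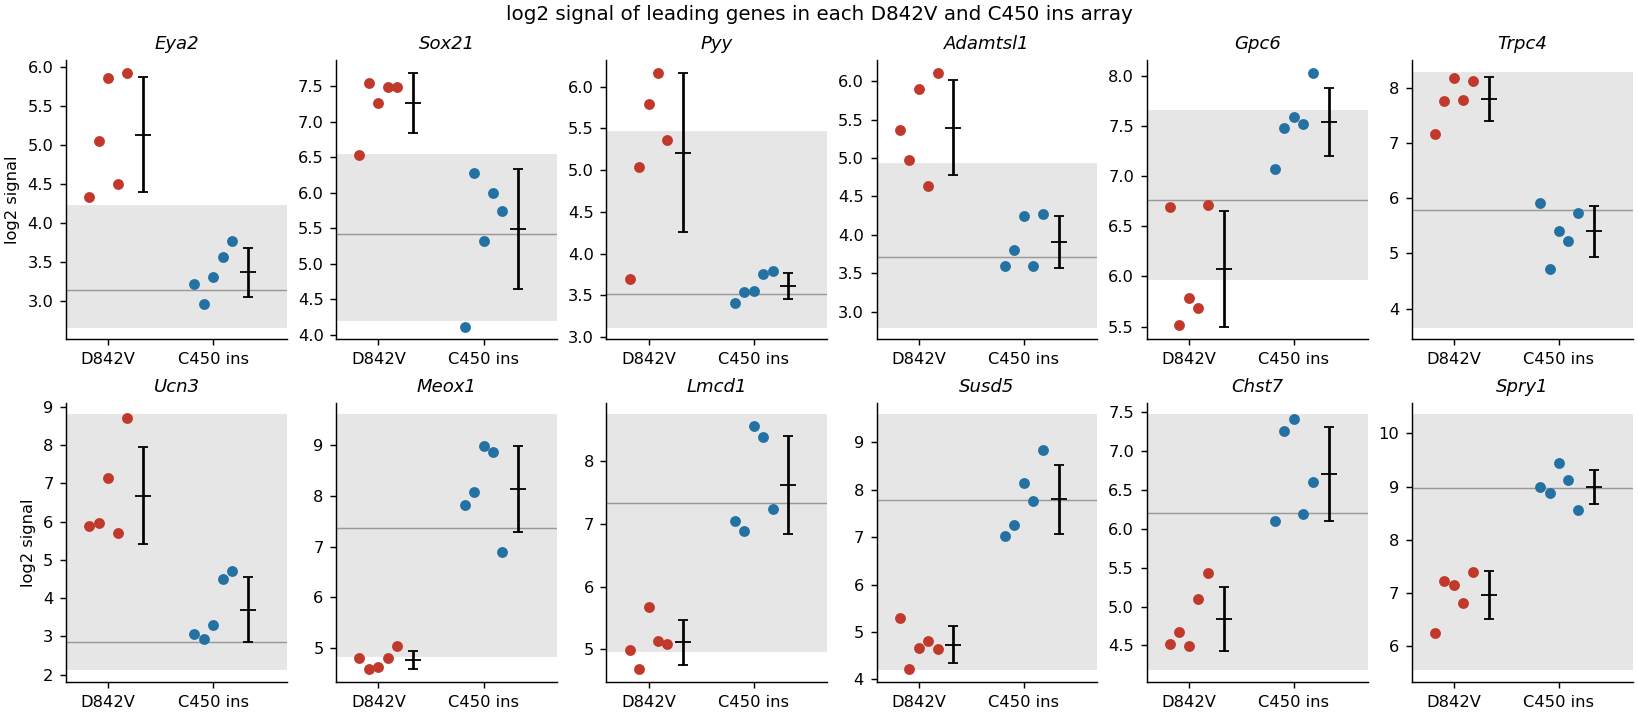
log2 signal of 12 genes in each D842V (red) and C450 ins (blue) array, with the mean ± SD of each group in black; the grey band and line give the range and median of 26 arrays of other mutants. Eya2 and Sox21 lie above the band in D842V, whereas Meox1, Lmcd1 and Susd5 lie near its lower edge there and Spry1 below its median.

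The remaining called genes were Pyy, Adamtsl1 and Gpc6. Pyy, a peptide of the neuropeptide Y family, was 3.69, 5.04, 5.79, 6.17 and 5.36 in D842V, and 3.41, 3.54, 3.55, 3.75 and 3.79 in C450 ins. D842V replicate 1 lay among the C450 ins arrays, and the difference was 1.60 ± 0.32 (limma adjusted p = 0.0489). Adamtsl1, a secreted protein related to the ADAMTS proteases but without their protease domain, was 5.36, 4.97, 5.90, 4.64 and 6.11 in D842V, and 3.59, 3.81, 4.25, 3.59 and 4.27 in C450 ins. Its groups did not overlap, its difference was 1.49 ± 0.31 (limma adjusted p = 0.0489), and all 3 of its probe sets were higher in D842V. Both passed the filter on low values only through D842V, where 4 arrays lay above the table median, against 0 in C450 ins and 1 of the other 35 for each gene. As for Eya2, their selection therefore favoured a difference.

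Gpc6, a glypican that carries heparan sulphate at the cell surface, was 6.69, 5.51, 5.79, 5.68 and 6.71 in D842V. In C450 ins it was 7.07, 7.48, 7.59, 7.52 and 8.03, and the groups did not overlap. The difference was -1.46 ± 0.30 (limma adjusted p = 0.0489), a level 2.75-fold lower in D842V. All 4 probe sets were lower in D842V, 2 of them without overlap. For Gpc6 the other mutants lay between 5.97 and 7.64, a range that reached into both groups. Pyy, Adamtsl1 and Gpc6 were each lost from the calls in at least 8 of the 10 leave-one-out fits, and in the fit on the 10 arrays, where their adjusted p values were 0.128, 0.0729 and 0.0729.

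Genes higher in D842V that did not pass included channels and secreted peptides. Trpc4, a calcium-permeable channel opened downstream of receptors, was 7.17, 7.77, 8.18, 7.78 and 8.13 in D842V, and 5.91, 4.72, 5.41, 5.23 and 5.73 in C450 ins. The groups were separated by a gap of 1.27, and the second probe set of Trpc4 was also without overlap. The difference was 2.41 ± 0.53, a level 5.3-fold higher in D842V, with a limma adjusted p of 0.0709. In the fit on the 10 arrays the adjusted p was 0.0114. Of the 26 other mutant arrays, 5 lay above the lowest D842V array.

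Ucn3, urocortin 3, a neuropeptide of the corticotropin-releasing family, was 5.89, 5.97, 7.13, 5.70 and 8.70 in D842V. In C450 ins it was 3.05, 2.93, 3.30, 4.51 and 4.71, all below the table median. The difference was 2.98 ± 0.73 (limma adjusted p = 0.178), and 24 of 26 other mutant arrays lay below the highest C450 ins array. Its highest value came from D842V replicate 5, the D842V array with the lowest neuron marker mean (5.7) and the lowest hypothalamus marker mean (4.6). The source of the Ucn3 transcripts was not tested. Ucn3 passed the filter only through D842V, with 5 arrays above the table median, against 0 in C450 ins and 2 of the other 35. The neuropeptide gene Npb differed by 1.18 ± 0.26 and Arhgap25, a GTPase-activating gene of blood cells, by 1.64 ± 0.37, with overlap in both. Npb, too, passed the filter only through D842V (3 arrays, against 0 in C450 ins and 1 of the other 35). Hdac5, a histone deacetylase, differed by only 0.51 ± 0.14, yet no array of the other mutants reached its lowest D842V value of 7.57. Dipk2a, Secisbp2l and Dync1li1, the last a dynein subunit, differed by 1.11 ± 0.27, 1.38 ± 0.36 and 0.77 ± 0.20 without overlap.

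Of the 403 genes without overlap, the 295 lower in D842V included a LIM domain gene and a sushi domain gene with wide gaps. Lmcd1, a LIM domain protein that represses GATA factors, was 4.99, 4.68, 5.67, 5.13 and 5.09 in D842V, and 7.05, 6.90, 8.56, 8.39 and 7.25 in C450 ins. The difference was -2.52 ± 0.57 (limma adjusted p = 0.0747, and 0.0227 in the fit on the 10 arrays). Susd5, a gene with a sushi domain, was 5.30, 4.23, 4.67, 4.82 and 4.63 in D842V, and 7.01, 7.25, 8.13, 7.76 and 8.83 in C450 ins. Its difference was -3.06 ± 0.87 (limma adjusted p = 0.358, and 0.0114 in the fit on the 10 arrays), and both of its probe sets were without overlap. In both genes the D842V arrays were the low ones among the mutants. Only 6 of the 26 other mutant arrays for Lmcd1 and 4 for Susd5 lay below the highest D842V array.

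Chst7, a sulphotransferase that modifies chondroitin chains, was 4.49 to 5.43 in D842V and 6.10 to 7.42 in C450 ins (-1.87 ± 0.49, limma adjusted p = 0.259, and 0.0394 in the fit on the 10 arrays). Kctd12b differed by -1.69 ± 0.47 and the axonemal dynein gene Dnah8 by -1.15 ± 0.30, the latter from low levels. Pdik1l, Zfp560, Rex1bd, the lectin receptor gene Cd302 and Zfp362 differed by -0.71, -0.73, -0.56, -0.86 and -0.78. These small differences were without overlap in the probe sets used and had standard errors of 0.14 to 0.23. The other probe sets of Pdik1l differed by 0.14 and -0.31, and the other of Zfp560 by -0.79, all with overlap.

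None of the listed genes of ERK feedback and output, and none of the immediate early genes, passed the test. Spry1, a Sprouty protein that restrains receptor tyrosine kinase signalling, was 6.24, 7.23, 7.15, 6.81 and 7.39 in D842V. In C450 ins it was 8.99, 8.87, 9.44, 9.12 and 8.56, and the other mutants had a median of 8.96. The gap was 1.17 and the difference -2.03 ± 0.56, a level 4.09-fold lower in D842V. It did not pass in the limma fit over all arrays (adjusted p = 0.356) and did in the fit on the 10 arrays (0.0136). The ETS factor gene Etv4, often induced by ERK, was 4.11 to 6.31 in D842V and 6.04 to 7.86 in C450 ins (-1.78 ± 0.65). Its relative Etv1 differed the other way, by 0.64 ± 0.27. Il17rd, a membrane inhibitor of ERK signalling, differed by -1.08 ± 0.49, and the phosphatase gene Dusp4 by 1.29 ± 0.59. Other feedback genes differed little on average, with 0.30 ± 0.29 for Dusp6, 0.05 ± 0.27 for Spry2 and -0.38 ± 0.44 for Spry4. Of 21 kept genes of ERK feedback and output 0 passed, 8 were higher and 13 lower on average, and the median was -0.14.

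Of 20 kept immediate early genes 0 passed, 18 were higher on average in D842V, and the median difference was 0.70 beside -0.03 over all kept genes. Unadjusted p was under 0.05 for 8 of them, and 4, namely Egr1, Egr2, Egr4 and Fos, were without overlap, beside 3.41% of all kept genes. The gaps of Egr4 and Fos were only 0.0647 and 0.0556. Egr4 lay below the table median of 4.79 in every C450 ins array and in D842V replicates 2, 3 and 5. Egr2, a zinc finger factor, was 7.36, 7.83, 8.09, 9.34 and 8.09 in D842V, and 6.17, 5.98, 6.41, 6.60 and 6.29 in C450 ins. It differed by 1.85 ± 0.53 (limma adjusted p = 0.358, and 0.0494 in the fit on the 10 arrays), and 1 of the 26 other mutant arrays lay above its lowest D842V value. Egr1 was 11.58, 11.62, 11.42, 12.49 and 11.42 in D842V, and 10.94, 10.41, 10.56, 10.62 and 10.07 in C450 ins (1.19 ± 0.42). The AP-1 subunit gene Fos was 11.10 ± 0.67 and 10.10 ± 0.25 (n = 5 each).

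D842V replicate 4 was the highest array of the immediate early list, with a mean of 9.4 against 7.1 to 7.9 in the other D842V arrays and 6.4 to 7.7 in C450 ins. Egr4 was 7.04 in that array and 3.65 to 5.03 in the other D842V arrays, beside 2.89 to 3.59 in C450 ins. Its difference of 1.50 ± 0.45 became 0.93 without replicate 4. The orphan nuclear receptor gene Nr4a3 was 9.95 there and overlapped between the groups. Its difference of 1.63 ± 0.64 became 1.16 without replicate 4. For Egr2 and Egr1 the differences with any 1 array left out stayed between 1.55 and 2.05 and between 0.99 and 1.29. Neuronal activity genes on the same list, Npas4 and Arc, differed by 2.32 ± 1.12 and 1.93 ± 0.998 with SDs of 2.90 and 1.996 in D842V.

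**Figure D3:**
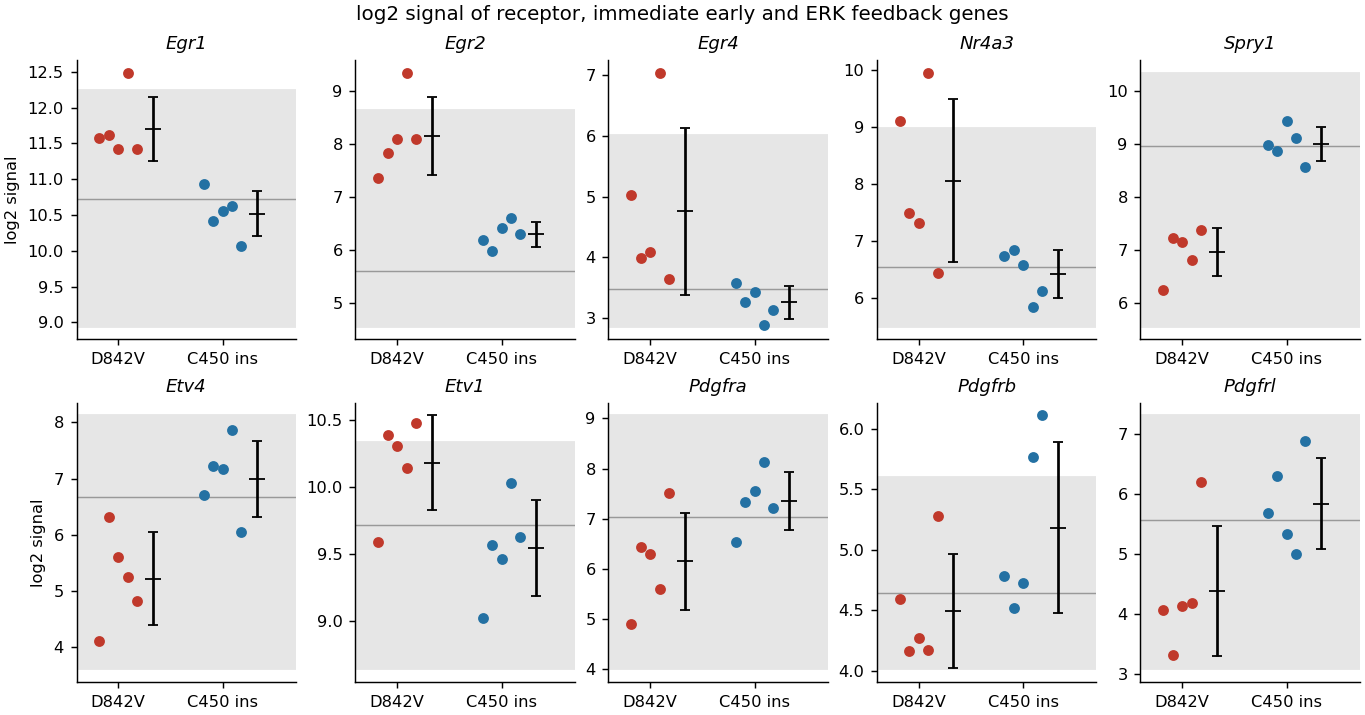
log2 signal of immediate early genes, ERK feedback genes and PDGF receptor genes in each D842V (red) and C450 ins (blue) array, with mean ± SD in black and the range and median of 26 other mutant arrays in grey. Egr2 is at 7.36 or more in D842V and 6.60 or less in C450 ins, Spry1 is separated in the opposite direction, and Pdgfra overlaps.

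The promoters of genes separated between the groups are shown to make the regulatory sequence visible next to the values above. Each runs from 250 bases before to 50 after the first start listed by RefSeq on GRCm38.p6, 5′ to 3′ on the gene's strand. Sox21 is at chr14:118236981-118237280 on the minus strand and Egr2 at chr10:67535249-67535548 on the plus strand. Egr4 is at chr6:85513540-85513839 on the minus strand and Fos at chr12:85473640-85473939 on the plus strand. Capitals mark TGACG, the half-site of the cyclic AMP response element, on either strand.
Sox21: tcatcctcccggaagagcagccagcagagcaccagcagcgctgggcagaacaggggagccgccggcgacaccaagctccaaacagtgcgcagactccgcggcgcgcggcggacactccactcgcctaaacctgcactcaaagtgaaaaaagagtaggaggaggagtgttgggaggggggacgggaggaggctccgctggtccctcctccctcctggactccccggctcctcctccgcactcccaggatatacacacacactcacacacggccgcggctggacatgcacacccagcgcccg
Egr2: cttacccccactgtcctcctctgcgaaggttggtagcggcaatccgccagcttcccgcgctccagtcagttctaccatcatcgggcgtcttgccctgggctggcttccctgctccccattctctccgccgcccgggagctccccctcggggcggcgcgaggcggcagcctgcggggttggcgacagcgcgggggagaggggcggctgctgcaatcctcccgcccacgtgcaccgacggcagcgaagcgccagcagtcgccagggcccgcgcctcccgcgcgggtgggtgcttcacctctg
Egr4: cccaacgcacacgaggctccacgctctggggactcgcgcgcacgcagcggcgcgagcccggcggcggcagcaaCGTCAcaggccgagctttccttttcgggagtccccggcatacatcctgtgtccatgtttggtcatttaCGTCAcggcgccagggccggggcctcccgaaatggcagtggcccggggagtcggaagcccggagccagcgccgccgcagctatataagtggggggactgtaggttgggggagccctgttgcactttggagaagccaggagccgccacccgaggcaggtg
Fos: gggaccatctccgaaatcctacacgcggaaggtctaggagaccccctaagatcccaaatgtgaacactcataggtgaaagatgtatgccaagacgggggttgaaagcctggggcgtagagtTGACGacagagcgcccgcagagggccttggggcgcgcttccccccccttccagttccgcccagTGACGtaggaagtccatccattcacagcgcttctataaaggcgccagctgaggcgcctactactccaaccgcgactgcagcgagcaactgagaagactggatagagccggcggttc
The half-site occurred 2 times in the window of Egr4 and 2 times in that of Fos, and these letters were not in those of Sox21 and Egr2. It was present in 13 of the 17 immediate early genes with a promoter in the table and in 20.8% of 32851 promoters of the same length. Here and below, the share of all promoters counts every listed start, whereas each of the 17 genes counts only by its first. The full element TGACGTCA, which contains the half-site, was in 1 of the 17, that of Dusp1, and in 1.79% of all promoters. An exact match to the CArG box, the site of serum response factor, was in 0 of the 17 windows and in 1.63% of all promoters. Sites outside these windows or with other letters were not searched, so the count does not show that these genes lack the site. The half-site was added after the sequences had been seen. A match is a description of the letters, not a site shown to be bound. Of the 5 called genes 2 had a promoter in the table.

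A pair of retinoid genes separated in opposite directions without passing. Rlbp1, a retinaldehyde carrier of glia, was 4.33, 4.41, 4.52, 4.69 and 3.35 in D842V, and 7.57, 6.61, 7.32, 5.42 and 6.76 in C450 ins. The difference was -2.48 ± 0.85 (limma adjusted p = 0.635, and 0.0394 in the fit on the 10 arrays), and 2 of the 26 other mutant arrays lay below the highest D842V array. Aldh1a3, an enzyme that makes retinoic acid, was 5.62 to 8.10 in D842V and 4.14 to 5.29 in C450 ins (1.63 ± 0.64, adjusted p = 0.74). The 10 kept genes of the list had a median of -0.19, with 4 higher and 6 lower on average. Of these only Rlbp1 and Aldh1a3 were without overlap, beside 3.41% of all kept genes.

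Notch and Wnt genes were mostly lower on average in D842V, without passing. Of 11 kept Notch genes 0 passed and 10 were lower on average (median -0.45), with -0.56 ± 0.23 for the receptor gene Notch3 and -0.93 ± 0.40 for the feedback gene Nrarp. Of 13 kept Wnt and BMP targets 0 passed and 10 were lower (median -0.35), with -0.64 ± 0.30 for Axin2 and -0.92 ± 0.40 for Rnf43, both negative regulators of Wnt signalling. Proliferation genes differed little: 24 kept cell cycle genes had a median of -0.09, 9 higher and 15 lower, with list means of 6.8 to 8.7 in both groups. The cyclin gene Ccnd2 differed by -1.20 ± 0.50, with overlap. Of 15 kept interferon response genes 0 passed and 13 were higher on average (median 0.69). The GTPase gene Gbp2 differed by 1.59 ± 0.82 and Ifit2 by 0.89 ± 0.49. The arrays of that list overlapped, at 6.9 to 8.8 in D842V and 6.7 to 8.2 in C450 ins.

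**Figure D4:**
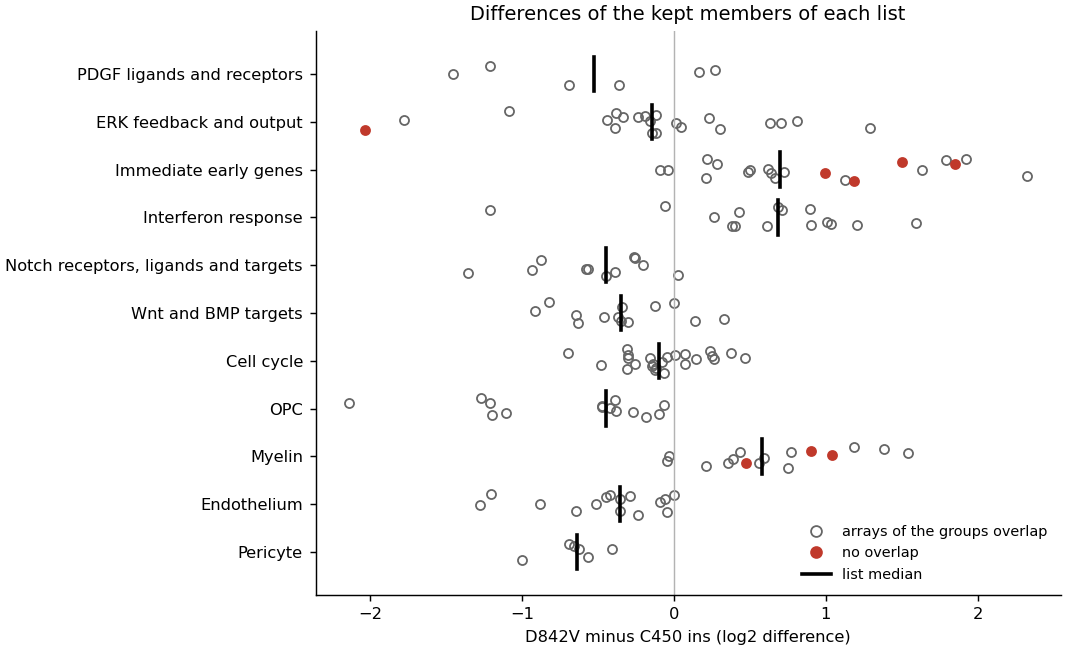
Difference (D842V minus C450 ins, log2) of every kept member of 11 lists, 1 point a gene, with the list median as a black bar and genes whose arrays do not overlap in red. Immediate early, interferon and myelin genes have medians of 0.70, 0.69 and 0.58, and the 14 oligodendrocyte progenitor genes all lie below 0.

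Within the oligodendrocyte lineage, progenitor markers and myelin genes differed in opposite directions on average, and 0 of either passed. All 14 kept progenitor markers were lower in D842V, with a median of -0.45. Their list mean was 8.62, 9.70, 9.69, 9.58 and 9.97 in D842V, and 9.34, 10.30, 10.44, 10.55 and 10.39 in C450 ins. The matrix gene Matn4 was 6.33 to 6.97 in D842V, and 6.81 in C450 ins replicate 4 but 8.57 to 9.77 in the other 4 (-2.14 ± 1.09). C1ql1, a secreted synaptic organiser, differed by -1.27 ± 0.65, and the proteoglycan gene Vcan by -1.20 ± 0.74.

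Of 16 kept myelin genes 14 were higher in D842V, with a median of 0.58. The list mean was 8.6 to 9.3 in D842V and 8.0 to 8.8 in C450 ins. Trf, the iron carrier transferrin made by oligodendrocytes, was 11.21, 11.22, 11.55, 11.58 and 11.80 in D842V, and 10.42, 10.59, 10.60, 10.26 and 10.30 in C450 ins. The groups did not overlap, and the difference was 1.04 ± 0.42 (limma adjusted p = 0.74, and 0.0227 in the fit on the 10 arrays). Mag and Mbp, both myelin proteins, were also without overlap, at 0.91 ± 0.63 and 0.48 ± 0.55, but their gaps were only 0.01 and 0.16. Trf, Mag and Mbp were the 3 of 16 genes without overlap, beside 3.41% of all kept genes. Mobp, Ermn and Gpr37 overlapped, with differences of 1.54 ± 0.79, 1.38 ± 0.71 and 1.19 ± 0.61. Without the 3 arrays whose neuron marker mean was under 7, the differences of Trf and Mobp were 0.86 and 0.91.

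Vascular markers were lower in D842V on average. Of 15 kept endothelial genes 14 were lower (median -0.36), with -1.20 ± 0.51 for Vwf, the clotting factor carrier, and -0.88 ± 0.42 for Cdh5, a cadherin of endothelial junctions. All 6 kept pericyte genes were lower (median -0.64), and 0 genes of either list passed. The endothelial list mean was 5.7 to 6.7 in D842V and 6.3 to 7.1 in C450 ins. The part of vessel content in other results was not tested.

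The list means of neuronal, astrocyte and microglial markers overlapped between the groups. The 16 kept neuron genes had a median of 0.53, with 15 higher on average. Nefl, a neurofilament gene, was 5.94 to 11.89 in D842V and 4.25 to 10.29 in C450 ins (2.07 ± 1.40). The 17 kept astrocyte genes had a median of 0.18 and the 17 kept microglial genes 0.19. The microglial receptor gene P2ry12 was 6.54 to 8.46 in D842V and 4.83 to 8.04 in C450 ins (1.27 ± 0.58). D842V replicate 5 had the highest granulocyte list mean of the 10 arrays, 8.4, and the inflammatory genes S100a9 and S100a8 at 9.94 and 9.81. Its fibroblast list mean was 8.1, as in C450 ins replicate 5, and the collagen gene Col3a1 was 11.63 and 11.81 in these arrays.

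Genes of choroid plexus, hypothalamus and pituitary differed by large amounts between arrays of a group, and none passed. Ttr, transthyretin of the choroid plexus, was 13.08, 13.09, 10.52, 12.49 and 13.01 in D842V, and 5.37, 6.89, 13.28, 8.66 and 5.07 in C450 ins. C450 ins replicate 3 held the highest value of all 10 arrays, so the groups overlapped. The difference was 4.59 ± 1.35 (limma adjusted p = 0.423) and became 5.94 without that array, but 1.02 with array weights. Clic6 and Kl, also of choroid plexus, were 8.50 and 6.99 in C450 ins replicate 3, above every D842V array, and differed by 1.84 ± 1.02 and 1.09 ± 0.67. With array weights both differences changed sign, to -1.06. The weight of C450 ins replicate 3 was 9.94, against 0.37 to 3.36 in the other C450 ins arrays. The weighted C450 ins mean thus came mostly from that array. The 12 kept ependymal and choroid plexus genes had a median of 0.62, with list means of 4.6 to 6.3 in D842V and 4.0 to 6.8 in C450 ins.

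Pmch, a hypothalamic peptide gene, was 10.57, 8.57, 10.44, 9.73 and 4.81 in D842V, and 3.03, 3.18, 11.16, 4.48 and 3.05 in C450 ins. The difference of 3.84 ± 1.42 became 5.39 without C450 ins replicate 3 and 0.95 with array weights. The opioid peptide gene Penk differed by 2.13 ± 1.32. Of 16 kept hypothalamic genes 0 passed and 12 were higher on average (median 0.89). The pituitary hormone genes Prl and Gh were 13.54 and 13.03 in C450 ins replicate 5 and 9.39 and 7.63 in replicate 3, against 3.15 to 3.44 and 3.23 to 3.62 in D842V. Their differences of -3.33 ± 1.54 and -2.84 ± 1.41 became -1.61 and -1.13 without replicate 5. Pomc and Cga, hormone precursor and subunit genes of the pituitary, were 12.23 and 10.94 in C450 ins replicate 5, with differences of -1.75 ± 1.27 and -1.15 ± 1.08. Without that array the differences of Pomc and Cga were -0.35 and 0.33. The pituitary list mean was 12 in that array and 7.5 in replicate 3, and 4.1 to 5.7 in the other 8 arrays. The part of tissue from these regions in other results was not tested.

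**Figure D5:**
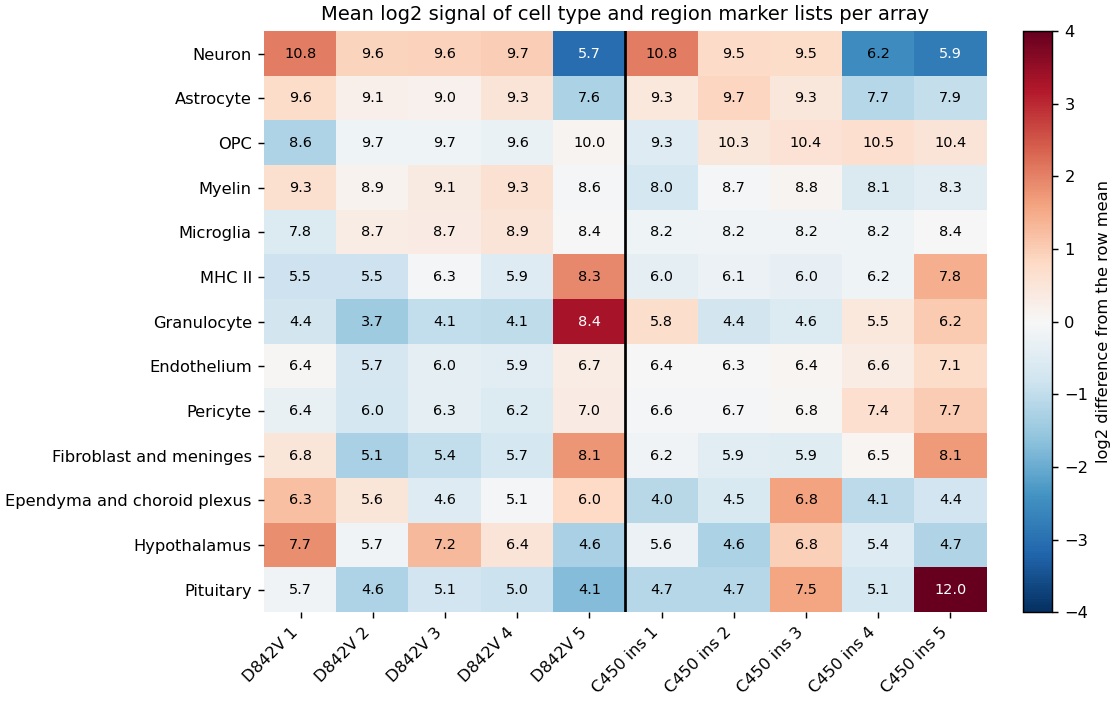
Mean log2 signal of the kept genes of 13 cell type and region lists in each of the 10 arrays, printed in the cell; colour gives the difference from the mean of the row. The neuron mean is under 7 in D842V 5 and C450 ins 4 and 5, the pituitary mean is 12 in C450 ins 5, and the progenitor (OPC) mean is 9.34 to 10.55 in C450 ins and 8.62 to 9.97 in D842V.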

How the data were processed

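Total RNA, 100 ng an array, was labelled with biotin for Affymetrix 3′ IVT arrays, per the labels' protocols. The authors deposited log2 signals per probe set, made with RMA, per the submitters' processing notes; its version and settings are not given in the sources used here. For arrays, their number limits the precision. The table held 45141 probe sets for 45 arrays: 28898 had 1 gene symbol, 551 several and 15692 none. Each of 17097 genes was represented by its brightest probe set on average. A gene was kept when 3 or more arrays exceeded 4.79, the median of the table (11809 genes). Group means of 8 genotypes were fitted over all arrays with limma 3.58.1 in R 4.3.3 (lmFit, eBayes), without covariates, and D842V minus C450 ins was tested with Benjamini-Hochberg adjustment.

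Replicates were numbered in accession order. Lists (39, with 603 symbols, 469 kept and 2 of these called) are described by counts and medians. Named were called genes, the genes of smallest p up to 12 a direction, up to 6 by gap, up to 4 a list by smallest p, and the PDGF, Egfr and sex chromosome genes. Dusp4, Dusp6, Spry2, Spry4, Fos, Npas4, Arc, Mag and Mbp were added after their values were seen. The members and lists were chosen with earlier results of these data known. The fit was tested on simulated data. Alternatives were other array sets, filters, probe set rules, normalisations, priors, covariates, array weights, a minimum difference and leaving out each array.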

Additional observations from a re-analysis of the deposited data

Results flagged for a closer look

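Of 158 groups of 5 values, 18 held an array far from the other 4 by Dixon's test, which chance gives in about 1 group in 20. Among genes of the main comparison, D842V replicate 1 had Sox21 at 6.54, the other 4 at 7.26 to 7.55. Egr1 was 12.49 in D842V replicate 4 against 11.42 to 11.62, and Ttr was 10.52 in D842V replicate 3 against 12.49 to 13.09. In D842V replicate 5, Rlbp1 was 3.35 and P2ry12 6.54, below the others, and S100a9 at 9.94 and S100a8 at 9.81 were above them.

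Among C450 ins arrays, replicate 3 was high in Pmch (11.16), Clic6 (8.50) and Kl (6.99) and low in Aldh1a3 (4.14). Replicate 4 was high in Hoxa5, at 7.78 against 3.28 to 3.71, and in Rex1bd, at 9.57. Replicate 5 was high in Pomc (12.23) and Cga (10.94). Replicate 1 was low in Kctd12b (5.42), Il17rd (5.17) and Vcan (10.05).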

How the results depend on the processing

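No paired analysis was possible because the labels give the groups no shared replicate numbers. The count of called genes, 5 over all arrays, was 38 with only the 10 arrays, 72 with titles 1 to 30 and 8 with the 6 mutants. Only 1 was called with a block for title range, with centred arrays, quantile normalisation or a trended robust prior, and 2 when unfiltered. limma called 0 genes with a filter of 9 arrays (658 at unadjusted p under 0.05), with a filter of 5 of the 10 arrays (616) or with a minimum log2 difference of 1 (17). Array weights, from 0.17 to 9.94, gave 3323. Leaving out 1 array gave 1 to 8, the latter without D842V replicate 1. Chosen after seeing the data, the fit without the 3 arrays low in neuronal transcripts gave 1 and the neuron list as a covariate 10.

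Over 77 genes and 27 settings, 1946 values kept their sign and 24 did not, in 10 genes, and none of the 5 called genes was among these. Changing the other arrays, the filter or the prior, or adding a block for title range, leaves a difference as it is. The sign could not change in those settings, nor on leaving out 1 array where the groups did not overlap. Xist was 0.18 with the mean of probe sets, 0.24 with the largest variance and 0.0024 with centred arrays. With array weights Pdgfb was 0.12, Eif2s3y -0.0094, Uty -0.079, and Clic6 and Kl both -1.06. Without the 3 arrays low in neuronal transcripts Pdgfc was -0.0015, Pomc 0.085 and Cga 0.68. Leaving out 1 array gave ranges of -0.38 to 0.28 for Xist, -0.33 to 0.30 for Kdm5d, -0.34 to 0.55 for Eif2s3y, -0.28 to 0.42 for Uty, -1.63 to 0.33 for Cga, -0.0584 to 0.029 for Actb 3′ minus 5′. Beyond the high weight of C450 ins replicate 3, the cause of these changes was not tested.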
